A study of Sus scrofa with 4 samples.

Results

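The pig testis at 30 days of age was compared with the testis at 7 days, as whole dissociated tissue and then inside 5 groups of cells. The comparison rests on 31132 barcodes, 17285 of the 30-day library and 13847 of the 7-day library, of 69602 barcodes deposited for all 4 ages. They are all the barcodes of those ages that hold 1000 or more unique molecular identifiers (UMIs, each standing for 1 captured RNA molecule) and 500 or more genes, while the 13 mitochondrial genes take no more than 15% of the UMIs. The same filter kept 55798 barcodes over the 4 ages.

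The series profiled testis cells of Sus scrofa at 7, 30, 60 and 90 days with droplet single-cell RNA sequencing. No treatment, genotype or strain is given in the labels, so the groups differ by age only, as far as they say. Each age was 1 library, with no word on how many animals entered it. Age therefore cannot be told apart from library, animal or dissociation, no difference has a replicate check, and no test was run.

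The first month of life in the pig testis is a time in which seminiferous cords grow. Sertoli cells, which line the cords and feed the germ cells, multiply and begin to mature, and the germ cells are still gonocytes and early spermatogonia. Between the cords lie fibroblast-like stromal cells, flat precursors of the contractile peritubular cells, testosterone-making Leydig cells, blood vessels and resident macrophages.

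Levels are in CPM, the counts of a gene per 1000000 counts summed over a library or a group of barcodes, and differences are log2 ratios of 30 over 7 days, so that 1 is a doubling. All intervals are exact, at 95%, and hold no error other than that of counting. A gene was called higher or lower when its levels differed by at least 1.5 times, the interval left out no change, and both libraries together held at least 10 counts. These words give the size of a ratio and not a tested change. The kept barcodes held 93213072 counts at 7 days and 75981051 at 30 days, with a median of 5241 and 3071 UMIs per barcode. The libraries shared 92 barcode sequences, 0.579% of the smaller one.

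Barcodes were sorted into gates, groups set by how many different marker genes of a class a barcode held. A barcode entered a gate with at least 3 markers of the class and at least 2 more than of any of the 12 other classes. Sertoli barcodes made up 41.4% (40.5 to 42.2%) of the 7-day and 30.6% (29.9 to 31.3%) of the 30-day barcodes. Stromal barcodes went the other way, from 28.1% (27.3 to 28.8%) to 38.5% (37.8 to 39.3%). Germ barcodes made up 3.86% (3.54 to 4.19%) and then 5.71% (5.37 to 6.07%). Macrophage barcodes made up 4.09% (3.77 to 4.44%) and then 2.91% (2.66 to 3.17%). Endothelial barcodes made up 3.90% (3.58 to 4.24%) and then 3.54% (3.27 to 3.83%), with overlapping intervals. No gate was given to 15.7% of the 7-day and 14.7% of the 30-day barcodes. With a stricter gate, which allows at most 1 marker of any other class, the direction turned for Sertoli barcodes (0.758% and then 3.03%), endothelial barcodes (0.534% and 1.08%) and macrophage barcodes (0.361% and 0.775%), with 94.0% of the 7-day and 83.1% of the 30-day barcodes left ungated.

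**Figure D1:**
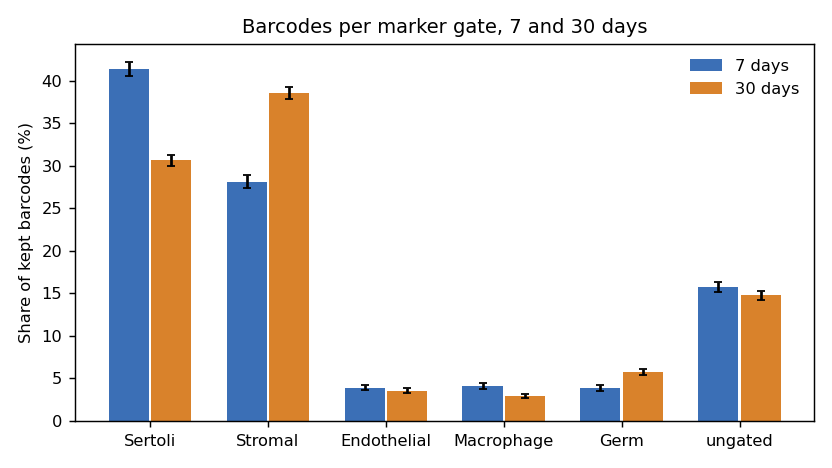
Share of kept barcodes in each marker gate at 7 and 30 days, in percent, with exact 95% intervals for counting error. The Sertoli bar is higher at 7 days (41.4% against 30.6%) and the stromal bar at 30 days (38.5% against 28.1%).

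The gates also differed in depth and purity. Median UMIs per barcode were lower at 30 days in every one of the 5 gates, from 5755 to 3868 in the Sertoli gate, 3468 to 2193 in the stromal gate and 6721 to 3089 in the macrophage gate. Called doublets (barcodes that hold RNA of 2 cells) were 5.87% of the 7-day and 10.0% of the 30-day barcodes. Among 30-day macrophage barcodes the share was 11.9%, and among 30-day Sertoli barcodes 1.85%. The stromal gate holds more than fibroblasts. MYH11, a smooth muscle myosin of peritubular cells, stood there at 19.8 CPM at 7 days and 229 at 30 days, and INSL3, a hormone of Leydig cells, at 1984 and 1162.

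RNA of Sertoli cells was read in every gate. AMH, the anti-Müllerian hormone that Sertoli cells secrete, stood at 2504 CPM in the Sertoli gate of the 7-day library. In the same library it read 418 in the stromal, 311 in the endothelial, 337 in the macrophage and 194 in the germ gate. At 7 days 8 Sertoli markers had a median level in the stromal gate of 14.5% of their level in the Sertoli gate, and of 10.6% in the endothelial, 9.76% in the macrophage and 6.38% in the germ gate. At 30 days, with 9 markers, the medians were 12.01%, 9.60%, 11.2% and 4.26%. The part of RNA from broken cells in these readings was not tested, so levels by gate are given beside the results.

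In the whole library 24811 genes were measured. Of these, 4356 were higher (17.6%) and 1317 lower (5.31%) at 30 days, and the median over all genes was 0.19 log2. A different scaling factor, TMM, lowers all ratios so that this median becomes 0.01, and the counts then read 2862 higher and 2021 lower. The higher genes made up 76.8% of all calls on the main scale and 58.6% with TMM. In a summed library more cells of a type and more RNA per cell cannot be told apart. For equal gate shares, each of the 5 gates and all other barcodes together were given the same weight at both ages. Then 2969 of the 4356 higher genes (68.2%) and 1151 of the 1317 lower genes (87.4%) still passed 1.5 times. None turned to a call in the other direction.

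PRND, which encodes the prion-like protein doppel, showed the largest increase among abundant genes. Its whole-library level was 7.17 CPM at 7 days and 91.3 at 30 days, and later 249.9 at 60 and 227 at 90 days. The log2 ratio was 3.67 (3.56 to 3.79). The gates split this gene: the Sertoli gate went from 3.11 to 195 CPM, while endothelial barcodes held 117 at 7 days and 95.02 at 30 days. The highest level thus lay in the endothelial gate at 7 days and in the Sertoli gate at 30 days. It lies on chromosome 17 of Sscrofa11.1, between 13729715 and 13735485.

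CRABP1, a binding protein for retinoic acid, read 15.9 and then 123 CPM, so the log2 ratio was 2.94 (2.86 to 3.02). At 7 days its level was 104 in the germ gate and at most 4.44 in the other 4. At 30 days it was 207 in the germ gate and 173 in the Sertoli gate, where the ratio was 5.28 (5.06 to 5.50). The stromal gate then held 38.9, the endothelial gate 19.8 and the macrophage gate 18.4. CRABP1 lies on chromosome 7 at 47602316 to 47608865. CYP26B1, which breaks retinoic acid down, went from 11.5 to 175 CPM in the stromal gate, was also higher in the endothelial and macrophage gates, and read 20.5 and 18.9 in the Sertoli gate. ALDH1A1, which makes it, went from 26.0 to 107 in the Sertoli gate.

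Several of the largest increases had their highest level in the stromal gate. PENK, the precursor of enkephalin peptides, read 34.9 and then 207 CPM in the whole library, so the log2 ratio was 2.57. In the stromal gate it read 182 and then 806, against at most 41.3 in any other gate at 30 days. IGF1, the growth factor, went from 60.2 to 205 in the stromal gate and from 17.4 to 118 in the macrophage gate, while the endothelial gate read 59.2 and 43.0. APOD, a lipid carrier, went from 105 to 459 in the stromal gate. COL4A4, a basement membrane collagen chain, went from 9.77 to 232 there and from 22.5 to 7.34 in the Sertoli gate. The chain thus had its highest level in the Sertoli gate at 7 days and in the stromal gate at 30 days. COL4A4 lies on chromosome 15 at 128472228 to 128612302, and PENK on chromosome 4 at 75525497 to 75530403.

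Of the other named increases, 3 had their highest level in the Sertoli gate and 2 in the stromal gate. C14orf180 went from 25.8 to 154 CPM in the Sertoli gate, EPHX2, a soluble epoxide hydrolase, from 35.6 to 167, and CYP4F8, a fatty acid hydroxylase of the cytochrome family, from 33.2 to 145. RASD1, a Ras-like protein induced by glucocorticoids, went from 31.2 to 118 in the Sertoli gate and from 71.1 to 294 in the stromal gate. SULT2A1, a steroid sulfotransferase, was higher in the whole library by 1.83 log2 and reached at most 22.2 CPM in any of the 5 gates at 30 days. Its stromal level was the highest of the 5, against 3.44 in the Sertoli gate. Its whole-library level was 64.6.

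TNNI1, the slow muscle form of troponin I, showed the largest decrease. It stood at 145 CPM in the whole library at 7 days, 8.67 at 30, 6.94 at 60 and 0.293 at 90 days. The log2 ratio of 30 over 7 days was -4.06 (-4.17 to -3.95). In the Sertoli gate it read 249 and then 15.96. The other gates held between 13.2 and 42.8 at 7 days and at most 4.05 at 30 days. The keratin KRT8 of simple epithelia went from 146 to 3.44 in the Sertoli gate. Both genes thus had their highest 7-day level in the Sertoli gate and read far lower there at 30 days. TNNI1 lies on chromosome 10 at 23788279 to 23800554.

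Of 9 other named decreases, 7 had their highest 7-day level in the macrophage gate. CCL8, a chemokine that draws monocytes, stood there at 3523 CPM at 7 days and 1353 at 30 days. CCL4 read 3910 and 1431, CXCL10, a chemokine induced by interferon, 1695 and 96.9, and the secreted phosphoprotein SPP1 1824 and 551. CCL2 was spread wider, with 919 in the macrophage, 714 in the stromal and 310 in the Sertoli gate at 7 days, against 362, 298 and 28.9 at 30 days. GBP1 and BST2, both antiviral proteins, are members of the interferon list. The share of macrophage barcodes in the gate was also lower at 30 days, and its part in the whole-library differences was not tested. At equal gate shares the log2 ratio was -1.43 for CCL8, against -2.14 in the whole library. In the same order the ratios were -1.22 and -1.78 for CCL4, -1.39 and -1.98 for SPP1, and -1.52 and -1.76 for BST2. They were -1.84 and -1.95 for GBP1, -1.89 and -1.77 for CXCL10, and -1.78 and -1.73 for CCL2. LGALS3BP, a secreted binding protein of galectins, stood at 274 in the Sertoli, 490 in the stromal, 483 in the endothelial and 403 in the macrophage gate at 7 days, and at 77.8, 144, 105 and 155 at 30 days. SERPINA3-2, a protease inhibitor, went from 461 to 156 in the Sertoli gate. The 23 genes reported by the rule for the whole library all kept their direction and their call under each of the 8 other settings tried for it. They were picked as the strongest, so a fold of 2, at least 50 counts and the TMM factor could not have changed a call.

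**Figure D2:**
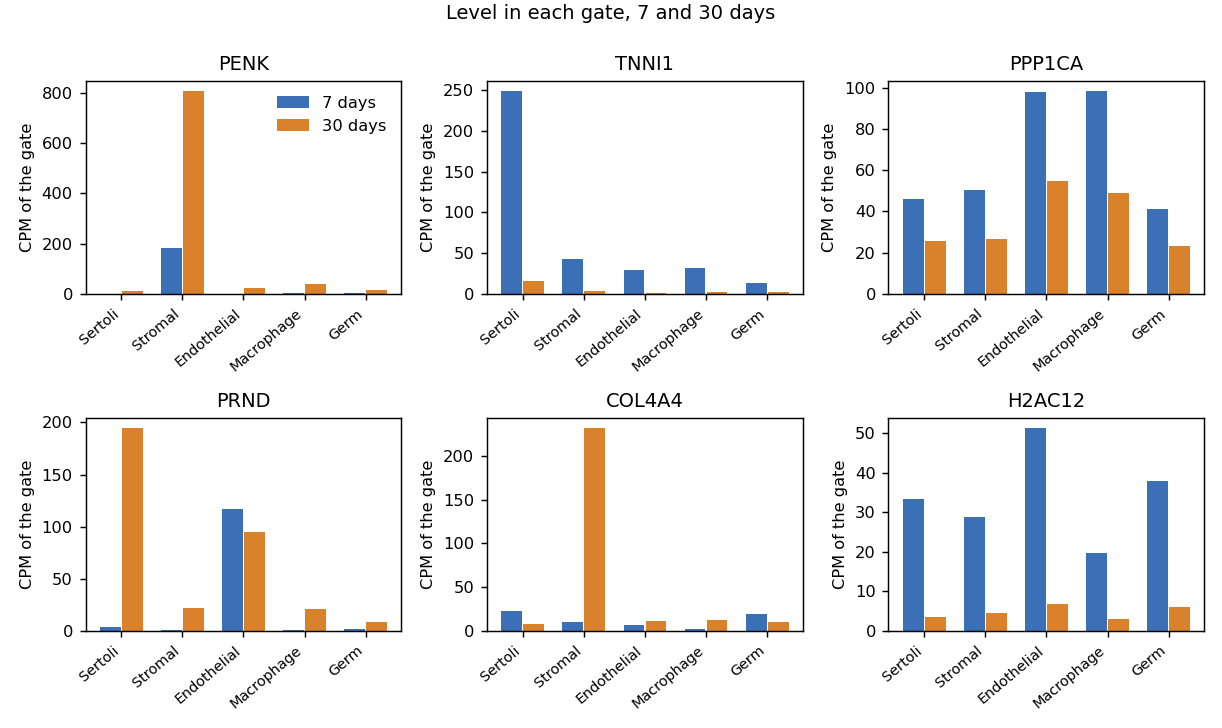
Level of 6 genes in each of the 5 gates at 7 and 30 days, in CPM of the summed counts of the gate, on axes that start at 0. PENK is tallest in the stromal gate (806 at 30 days) and TNNI1 in the Sertoli gate (249 at 7 days), PRND and COL4A4 have another tallest gate at each age, and PPP1CA and H2AC12 are lower at 30 days in every gate.

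The question of which genes differ the same way in every kind of cell was then asked gate by gate. In the Sertoli gate 14.2% of measured genes were higher and 9.63% lower. The stromal gate had 12.5% and 6.61%, the endothelial gate 9.73% and 5.63%, the macrophage gate 13.4% and 8.11%, and the germ gate 4.97% and 4.65%. In either direction the germ gate called 9.62%, against 15.4% to 23.9% in the others. Of 11076 genes measured in all 5 gates, 44 were higher in all 5 (0.397%) and 24 lower in all 5 (0.217%), together 68 (0.614%). In at least 4 gates and with no opposite call, 164 were higher (1.48%) and 137 lower (1.24%). A further 375 genes (3.39%) were higher in one gate and lower in another, and 6128 (55.3%) were called in no gate. Of the 68 genes, 20 carry no symbol. CLDN11 and PDGFRA, higher in all 5, and AMH, lower in all 5, are in these counts but are markers used to set the gates, so they are no results.

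Most of the 68 genes had 1 strong gate. In the library where a gene was higher, its lowest gate read under 25% of its highest gate for 39 of the 44 higher and 16 of the 24 lower genes, against 46.0% of all 11076 genes. The median of that percentage was 7.43% for the higher genes, 9.46% for the lower and 27.4% for all. The Sertoli gate was the highest for 23 of the 44 and 8 of the 24.

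Genes highest in the Sertoli gate were also read in the other gates. Of the higher genes, 21 that are no gate markers had their highest level in the Sertoli gate. At 30 days their median level in the stromal gate was 21.1% of their level in the Sertoli gate. It was 12.6% in the endothelial, 18.1% in the macrophage and 9.24% in the germ gate. The highest gene reached 94.0%, 61.2%, 74.7% and 63.3% in the same order. The 9 markers read 12.01%, 9.60%, 11.2% and 4.26% in the same gates. The 7 lower genes of this kind read 17.7%, 12.1%, 12.7% and 9.23% at 7 days, with the highest gene at 66.1%, 70.9%, 96.6% and 74.3%, against 14.5%, 10.6%, 9.76% and 6.38% for 8 markers. All 8 medians of these genes lay above those of the markers, but the genes and the markers are not like sets. Barcodes with many Sertoli markers were kept out of the other gates, which lowers the markers there. The genes were picked for calls in all 5 gates. The part of RNA from broken cells in these readings was not tested. C14orf180 is one example. Its 30-day level was 154 CPM in the Sertoli gate, 24.0 in the stromal, 17.5 in the endothelial, 18.4 in the macrophage and 6.79 in the germ gate, and all 5 log2 ratios lay between 2.15 and 2.84. DEFB123, a defensin-like peptide, had ratios between 1.33 and 2.60, and PHEROC, at 73.4 in the Sertoli gate and at most 10.9 elsewhere, between 1.17 and 2.41.

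SPON2, a matrix protein, stood at 255 CPM in the Sertoli and 125 in the stromal gate at 30 days, against 62.5 and 51.0 at 7 days. TM7SF2, a cholesterol synthesis reductase, had ratios of 1.06 to 2.06 over the gates, and ABHD4, a lipid hydrolase, of 0.92 to 2.58, both with the Sertoli gate highest at 30 days. Other genes of the 44 were led by other gates. A2M, a broad protease inhibitor, went from 111 to 295 in the stromal gate and from 14.7 to 76.5 in the endothelial and 15.1 to 76.3 in the macrophage gate. PAPSS2, which makes the sulfate donor of the cell, went from 146 to 288 in the stromal gate. NPDC1 read 75.6 and then 211 in the endothelial gate and 77.2 and 130 in the germ gate, and at most 35.9 elsewhere. TOP1MT, the mitochondrial topoisomerase, led in the germ gate with 130 and 201, at a log2 ratio of 0.62 (0.53 to 0.72).

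Of the 24 lower genes, 8 had a lowest gate of at least 25% of the highest. PPP1CA, a catalytic subunit of protein phosphatase 1, is one of them. At 7 days it stood at 46.2 CPM in the Sertoli, 50.5 in the stromal, 97.9 in the endothelial, 98.3 in the macrophage and 41.4 in the germ gate. At 30 days the 5 levels were 25.8, 26.9, 54.7, 48.8 and 23.5. The log2 ratios all lay between -1.01 and -0.82, and the lowest gate held 42.1% of the highest. SNRPA1, a protein of the U2 spliceosome particle, stood between 66.0 and 147 at 7 days and between 32.7 and 97.7 at 30 days, with ratios of -1.37 to -0.59. MIPEP, a mitochondrial peptidase, had ratios of -1.20 to -0.85, but its lowest gate held 22.9% of its highest, under that threshold. PPP1CA lies on chromosome 2 at 5120202 to 5123168 and SNRPA1 on chromosome 1 at 145707393 to 145719287.

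H2AC12, a histone H2A gene, had a larger decrease, from between 19.7 and 51.4 CPM in the 5 gates at 7 days to between 2.87 and 6.71 at 30 days. Its log2 ratios were -3.30 to -2.65. It belongs to a family of near-identical genes among which reads can be split, so its value is uncertain. LDHB, a lactate dehydrogenase subunit, had levels of 4.85 to 9.28 at 7 days and 0.67 to 2.87 at 30 days. RefSeq lists 2 loci of that name, on chromosomes 2 and 5, so this value is uncertain as well. GPX1, a glutathione peroxidase, was no broad gene: it stood at 2368 and 1364 in the macrophage gate and at most 558 elsewhere. Its ratios ran from -1.83 in the Sertoli gate to -0.69 in the germ gate. UBE2C and PBK, both of dividing cells, had their largest difference in the Sertoli gate at -2.46 and -2.58, and their smallest at -0.61 in the macrophage and germ gate respectively.

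Among the 5 higher genes whose lowest gate held at least 25% of the highest, ABHD15, of the same hydrolase family as ABHD4, was the 1 with a symbol. Its levels were 17.7 and 42.2 in the Sertoli, 14.4 and 28.6 in the stromal, 11.6 and 20.5 in the endothelial, 9.99 and 31.5 in the macrophage and 12.6 and 26.7 CPM in the germ gate. It lies outside the rule for named genes and was chosen after its values were seen.

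**Figure D3:**
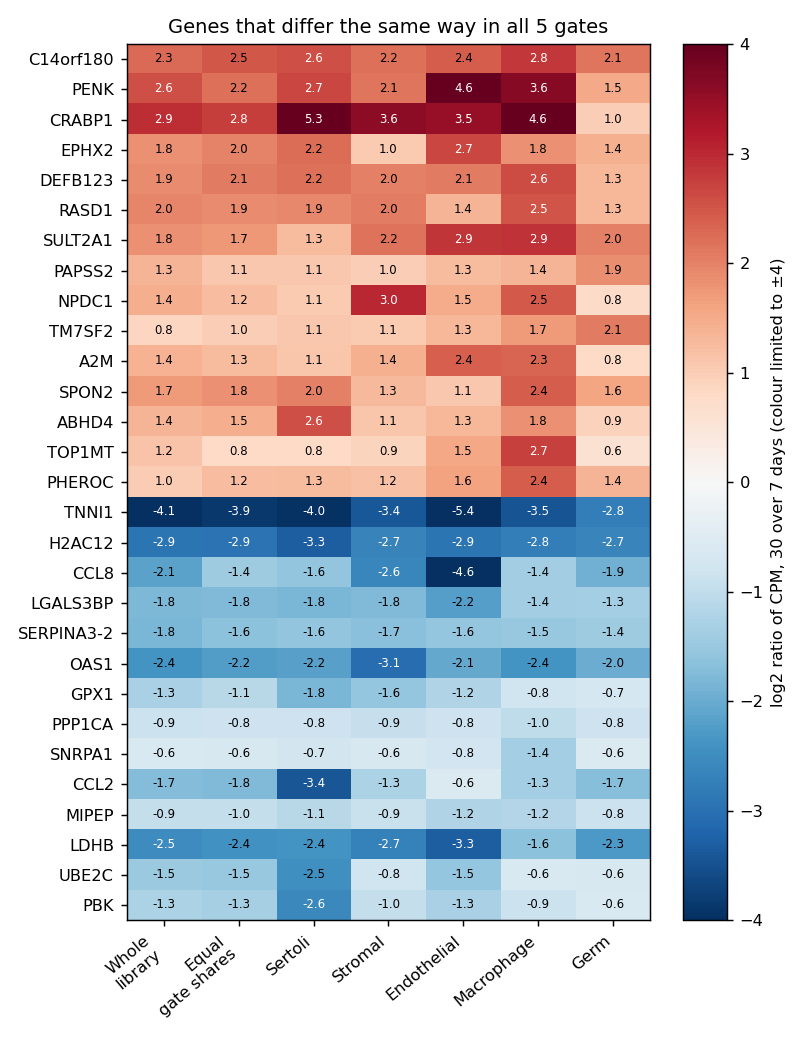
Log2 ratio of 30 over 7 days of the 15 named genes higher and of 14 genes lower in all 5 gates, for the whole library, for equal gate shares and for each gate. PPP1CA, SNRPA1 and MIPEP have an even line of moderate decreases, while CRABP1 ranges from 0.997 in the germ gate to 5.28 in the Sertoli gate.

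**Figure D4:**
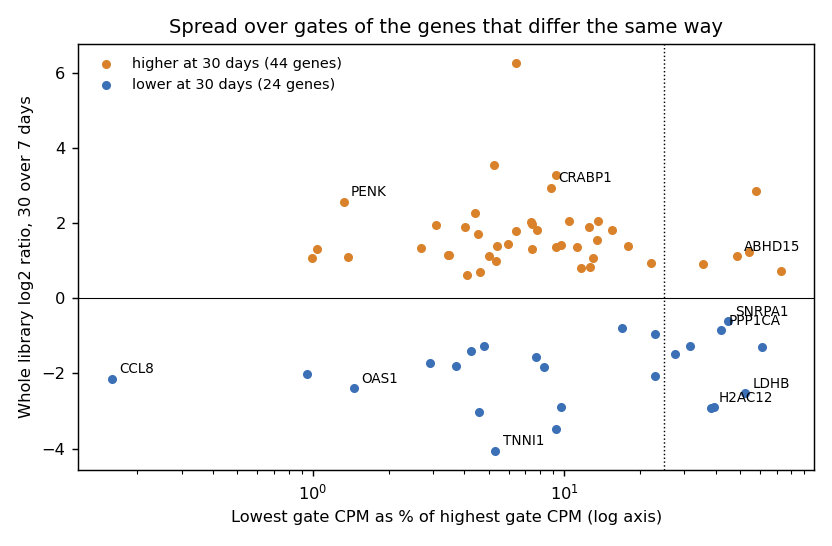
Whole-library log2 ratio of the 68 genes against the level of the lowest gate as a percentage of the highest gate, on a log axis, with a dotted line at 25%. Most points lie left of the line (39 of 44 higher and 16 of 24 lower genes), and PPP1CA, SNRPA1, LDHB, H2AC12 and ABHD15 lie right of it.

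The count of genes shared by all gates moved with the treatment of free RNA and doublets. After 10% of each gate's counts was subtracted in the profile of the whole library, 28 genes were higher and 18 lower in all 5 gates, of which 21 and 12 were among the original 44 and 24. After 25%, an amount chosen after seeing the data, 11 and 10 were left, with 6 and 8 shared. PPP1CA, SNRPA1, MIPEP, H2AC12, LDHB and ABHD15 were called under both subtractions. A gene with a like level in all gates keeps nearly the same ratio when the whole-library profile is subtracted. Most of these genes were such genes, so their calls cannot show how much free RNA their levels hold. Without the called doublets 20 genes were higher and 20 lower, of which 17 and 16 were shared.

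The germ gate stood apart from the somatic gates. With it left out, a choice made after seeing the data, 134 of 11092 genes were higher in all 4 somatic gates (1.21%) and 117 lower (1.05%). In the germ gate 44 of the 134 and 24 of the 117 were called the same way. Of the 134, 31 had their highest level in the germ gate, among them DND1, PIWIL2, TKTL1 and SMC1B, named after their values were seen. DND1, PIWIL2 and TKTL1 are germ markers used to set the gates, so their levels by gate are no results. DND1, an RNA-binding protein that germ cells need to survive, read 266 and 320 CPM in the germ gate. In the macrophage gate it read 1.28 and 14.9, and in the endothelial gate 4.55 and 24.8. The summed level of 11 germ markers in the macrophage gate was 17.2 at 7 days and 63.1 at 30 days, and 29.3 and 87.6 in the endothelial gate. The germ share of barcodes was higher at 30 days, and its part in these readings was not tested. Without called doublets the 134 became 53.

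Of the 117 lower genes, 30 were members of the interferon, cell cycle or antigen presentation lists (16, 9 and 5 in that order). In the same order the lists had 24, 31 and 14 members measured in all 5 gates. Over all genes 1.05% were lower in all 4 somatic gates. The 117 became 96 without called doublets, 128 after subtraction of 10% free RNA and 98 after 25%, with 24, 27 and 19 members of the 3 lists. Calls after subtraction again used no interval. The lists were chosen with earlier results of these data known, so these counts describe them and are no independent evidence of their direction.

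Most interferon response genes, which cells switch on against viruses, were lower in the 4 somatic gates. In the whole library 19 of 25 measured members were lower and 1 higher, and the median log2 ratio was -0.96, against 0.19 over all genes. In the Sertoli gate 19 of 24 were lower, and 21 of 24 in the stromal, endothelial and macrophage gates alike, with none higher. The medians were -1.02, -1.44, -1.39 and -1.54, against medians over all genes of 0.08, 0.09, 0.07 and 0.10 in the same gates. In the germ gate 1 of 25 was lower and the median was -0.07, against 0.01. Of all genes, 5.31% were lower in the whole library, and 9.63%, 6.61%, 5.63%, 8.11% and 4.65% in the gates from Sertoli to germ. ISG15, MX1 and IFI6 lie outside the rule for named genes and were chosen after their values were seen, as were the other list members singled out in what follows that are not among the up to 4 strongest of their list. ISG15, a ubiquitin-like antiviral modifier, stood at 90.5 CPM in the Sertoli, 273 in the stromal, 1106 in the endothelial and 748 in the macrophage gate at 7 days. At 30 days these levels were 22.1, 84.7, 492 and 84.9, while the germ gate read 18.7 and then 22.9. MX1, an antiviral GTPase, had log2 ratios of -1.96, -1.65, -1.53 and -1.85 in the somatic gates and -0.11 in the germ gate.

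OAS1, which senses double-stranded RNA, was the 1 member lower in all 5 gates. Its levels were 71.1 and 17.1 in the endothelial gate, 60.7 and 11.5 in the macrophage gate and 4.88 and 1.23 in the germ gate. IFI6 was 1 of 5 members not lower in the Sertoli gate and 1 of 6 not lower in the whole library. It was the most abundant member, at 2256 CPM in the whole library at 7 days and 2179 at 30 days. In the Sertoli gate IFI6 read 2518 and 3590, which did not reach 1.5 times, while the endothelial gate read 5128 and 1690. The summed level of the list in the Sertoli gate was thus 3118 and 3923, higher at 30 days although the median member was lower. OASL was the 1 member higher in the whole library, at 0.40 and 0.92 CPM.

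Genes for antigen presentation went part of the way with them. Of 14 measured members 9 were lower in the whole library, where the median was -0.69. In the somatic gates 7, 7, 10 and 6 were lower, from Sertoli to macrophage, and in the germ gate none was. The shares lower over all genes were 9.63%, 6.61%, 5.63% and 8.11% there, 4.65% in the germ gate and 5.31% in the whole library. With 14 members, none lower in the germ gate lies near its share. TAP1 and TAP2, the peptide pump, and PSMB8 and PSMB9, parts of the immunoproteasome, were lower in all 4 somatic gates. TAP1 stood at 98.5 and 31.3 CPM in the stromal and 214 and 67.1 in the macrophage gate. PSMB10, the third immunoproteasome part, was lower in the stromal, endothelial and macrophage gates, did not differ by the call in the Sertoli gate, and was higher in the germ gate, at 25.3 and 83.8. Class II genes were less even: SLA-DRB1 was higher in the stromal gate, at 42.4 and 137, and read 4197 and 4466 in the macrophage gate. At equal gate shares, where calls used no interval, 6 of the 14 were lower and the median was -0.28.

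More cell cycle genes were lower in the Sertoli gate than in any other. In the whole library 19 of 31 members were lower, none was higher and the median was -0.81. In the Sertoli gate 26 were lower, in the stromal 19, in the endothelial 23, in the macrophage 15 and in the germ gate 1. The medians were -1.66, -0.68, -1.01, -0.69 and -0.19. The lower members made up 83.9%, 61.3%, 74.2%, 48.4% and 3.23% of the list in that order. Over all genes these shares were 9.63%, 6.61%, 5.63%, 8.11% and 4.65%, and 5.31% in the whole library. The germ count thus lies near the share over all genes. By the summed level of the list the Sertoli gate did not stand out. That log2 ratio was -0.49 in the Sertoli, -0.51 in the stromal, -0.72 in the endothelial, -0.52 in the macrophage and -0.21 in the germ gate. TOP2A, the topoisomerase of dividing cells, stood at 355 CPM in the Sertoli gate at 7 days and 68.4 at 30 days, against 319 and 186 in the stromal gate and 138 and 104 in the germ gate. CENPF, a kinetochore protein, read 356 and 71.7 in the Sertoli gate and 397 and 302 in the germ gate. PCNA, the sliding clamp of DNA replication, had a ratio of -1.16 in the Sertoli gate and -0.37 in the stromal gate. A summed level cannot tell fewer dividing cells from less RNA per dividing cell.

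**Figure D5:**
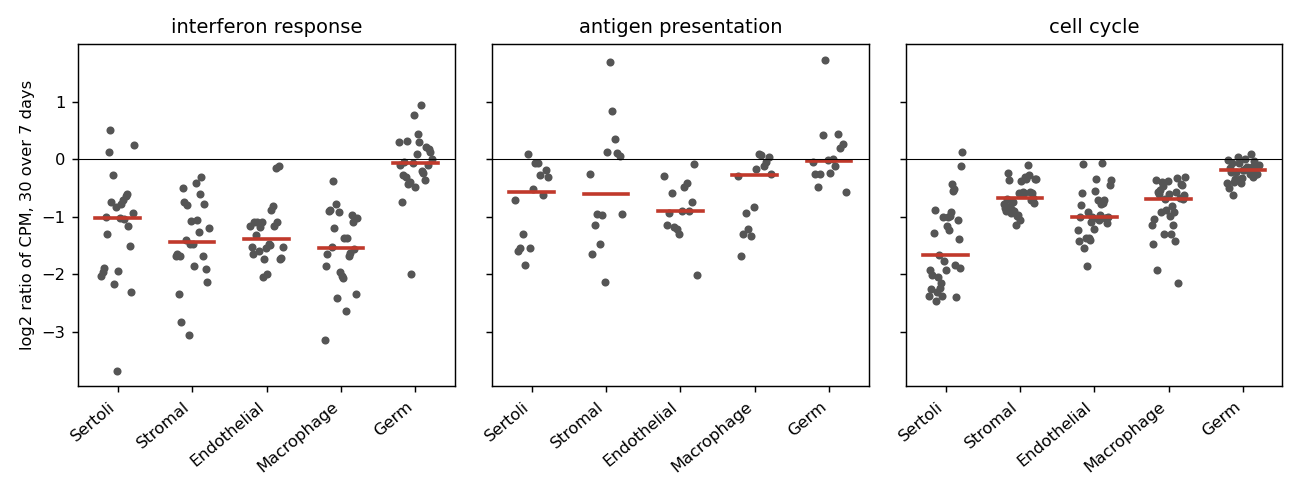
Log2 ratio of 30 over 7 days for each measured member (point) of 3 gene lists in each gate, with the median as a red line and no change at 0. In all 3 panels the germ column lies around 0 (medians -0.07, -0.03 and -0.19), and the lowest median of the cell cycle panel is in the Sertoli column (-1.66).

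The lists of single cell types are given for the whole library, for equal gate shares and for their own gate. Calls at equal gate shares used no interval. Of 25 genes of stromal states 14 were higher and 2 lower in the whole library, where the median was 0.65. At equal gate shares 9 were higher and 4 lower, and in the stromal gate itself 9 and 3, where 12.5% and 6.61% of all genes were called. MYH11 had a ratio of 3.53 in the stromal gate, MYOCD, the cofactor that drives smooth muscle genes, 3.29, and PTCH1, the receptor of hedgehog ligands, 1.15. MYH11 is a marker of a muscle class used to set the gates, so its ratio is no result. IGFBP5, a binding protein of insulin-like growth factors, had a ratio of -1.70 there. In the macrophage gate 11 of 19 were higher, and the summed level of 11 stromal markers there was 464 CPM at 7 days and 990 at 30 days, so stromal RNA in that gate moves with this count and its part was not tested.

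In the whole library 15 of 28 measured members of the germ cell states list were higher, 2 were lower and the median was 0.65. At equal gate shares 9 were higher and 3 lower, with a median ratio of 0.31. In the germ gate 3 were higher (10.7%) and 2 lower (7.14%), and the median was -0.01. Over all genes 17.6% were higher and 5.31% lower in the whole library, and 4.97% and 4.65% in the germ gate. FGFR3, a receptor of undifferentiated spermatogonia, was higher in the germ gate, at 46.1 and 86.2 CPM. KIT, the receptor of stem cell factor, was lower in the germ gate (86.5 and 53.2), and also in the stromal (21.4 and 4.87) and endothelial (198 and 74.2) gates. ZBTB16 and ID4, known from spermatogonial stem cells, were higher in all 4 somatic gates and lower in the germ gate without passing 1.5 times. In the Sertoli gate ID4 read 28.0 and 94.0, so its highest gate was the germ gate at 7 days, where it read 62.0, and the Sertoli gate at 30 days, when the germ gate read 45.6.

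Of 17 Sertoli maturation genes measured in the Sertoli gate 8 were higher, against 14.2% of all genes there, none was lower and the median was 0.64. Higher members were also found in the stromal (5 of 17), endothelial (5 of 15) and macrophage (5 of 14) gates. CLU, the secreted chaperone clusterin, read 9291 and 17316 CPM, and GJA1, a gap junction protein, 51.2 and 79.9 CPM. GJA1 was lower in the stromal and endothelial gates, at -1.04 in both. Of 24 cholesterol genes measured in the Sertoli gate 10 were higher and none lower, among them SQLE, a squalene oxidase, at 72.0 and 139.7. The stromal gate had 2 higher of 25, the endothelial gate 6 of 23 with 1 lower, the macrophage gate 3 of 23 and the germ gate 1 of 25.

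Of 20 genes of macrophage states measured in the macrophage gate, 5 were higher and 8 lower, where 13.4% of all genes were higher and 8.11% lower. In the whole library 1 of 21 was higher and 8 were lower. TNF, an inflammatory cytokine, stood at 402 CPM at 7 days and 62.5 at 30 days, and S100A8, a calcium-binding protein of myeloid cells, had a ratio of -0.71. S100A8 is a neutrophil marker used to set the gates, so its ratio is no result. FOLR2, a folate receptor of resident macrophages, was higher at 1.16. Of 17 glycolysis genes 10 were lower in this gate and none higher, and of 27 proteasome genes 11 were lower. The summed level of neutrophil markers in the whole library was 33.1 at 7 days and 8.65 at 30 days.

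Several groups differed little. None of 55 ribosomal protein genes, 20 translation factors, 27 proteasome genes or 13 mitochondrially encoded genes was called in the whole library, where 22.9% of all genes were called in either direction. Of 18 heat shock genes 1 was higher. Of 24 immediate early genes, which dissociation can induce, 2 were higher and 4 lower in the whole library, but the gates differed: 1 higher and 5 lower in the Sertoli gate, 6 and 1 in the stromal gate and 7 and 0 in the endothelial gate. Blood cell RNA differed strongly. The summed level of 4 erythroid markers was 466 CPM at 7 days and 30.4 at 30 days in the whole library. It was lower in 4 gates, and in the macrophage gate it read 316 and 390.

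The remaining lists stand beside whole-library shares over all genes of 17.6% higher and 5.31% lower. Of 21 genes of postnatal growth 7 were higher (33.3%) and 2 lower (9.52%), and PTN, a heparin-binding growth factor, read 847 CPM in the stromal gate at 7 days and 1772 at 30 days. Of 20 clock genes 3 were higher and 1 lower, near the shares over all genes, with 7 and 1 in the stromal gate. Of 33 collagen and matrix genes 8 were higher (24.2%) and 2 lower (6.06%), while the stromal gate had 3 and 4. In the macrophage gate 14 of 29 of them were higher, beside the higher stromal marker sum already given there. Immature Sertoli genes gave 3 higher (16.7%) and 4 lower (22.2%) of 18, and 1 and 6 of 17 in the Sertoli gate, where KRT8 is one of the 6. Steroid synthesis gave 1 and 1 of 19, endothelial states 4 (17.4%) and 5 (21.7%) of 23, imprinted genes 2 and 1 of 18, and histone and chromatin genes 0 and 3 (13.6%) of 22. Antioxidant genes gave 4 and 1 of 22, metal and iron genes 4 (25%) and 2 (12.5%) of 16, glucocorticoid targets 3 and 1 of 19, cold and hypoxia genes 3 and 0 of 18, and genes of stress in the endoplasmic reticulum 2 and 0 of 17.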

How the data were processed

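Testis cells of 4 ages were read with 10x Chromium 3′ chemistry version 3, and the 7-day and 30-day libraries were compared. The deposited files hold raw UMI counts for each gene and barcode, with no scaling. Cell Ranger 5.0.1 made them, per the file headers, and bcl2fastq, Scanpy 1.7.1 and build Sscrofa11.1 are listed in the submitters' processing notes. The labels speak of 86453 cells, against 69602 barcodes deposited. The files list 31908 features, of which 17323 have a symbol, 815 of them taken from a table of gene names.

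Barcodes were filtered as the report states and gated by 108 markers of 13 classes, 8 of them absent from the files. The gate threshold was set after seeing the data. Raw counts were summed per library and gate, and 95% intervals are conditional binomial for CPM ratios and Clopper-Pearson for shares, both exact. Depth therefore limits genes of few counts most. For equal gate shares each gate and the ungated rest were weighted by the mean of their UMI shares in both libraries. Of 635 list entries in 28 lists 74 were absent, and none of 3 Y-linked genes was called in the whole library. Members, lists and rules were chosen with earlier results of these data known. Doublets were called with Scrublet in Scanpy 1.11.5 and kept in the main analysis.

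Genes were named by rule. For the whole library these were the 12 strongest in each direction, ranked by the end of the interval closest to no change, among genes with a symbol that reached 50 CPM. For all 5 gates they were the 15 strongest in each direction by the weakest such bound over the gates, with at least 10 counts in each gate. For each list they were up to 4 called members with the largest ratio and those called in all 5 gates. Other genes were chosen after their values were seen, and some genes are not reported here. Mitochondrial, ribosomal protein, haemoglobin and gate marker genes were left out of the rules for the whole library and the 5 gates. The rule for lists did not leave out gate markers. Alternatives were a stricter filter (at least 1000 genes, at most 10% mitochondrial UMIs), no filter, TMM factors (edgeR 4.0.16, R 4.3.3), totals without mitochondrial, ribosomal protein and haemoglobin genes, means over barcodes, equal gate shares, a fold of 2, at least 50 counts, a stricter gate, doublet removal, subtraction of free RNA, and barcodes thinned to 1000 UMIs. The method was tested on simulated data for the same-way comparison of 11025 genes: 91 of 100 genes set to 2-fold and 100 of 100 set to 4-fold were recovered in all 5 gates, with none in the wrong direction and none of the other genes called. The simulated counts held counting error only, with no free RNA, doublets or library differences. The changed genes were picked among those with at least 50 counts in each gate. The run therefore cannot show how those effects bear on the real calls. Scripts ran on Python 3.11.15 with pandas 2.3.3, NumPy 2.4.6, matplotlib 3.10.9 and SciPy 1.17.1. Coordinates are those of RefSeq on Sscrofa11.1.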

Additional observations from a re-analysis of the deposited data

Results flagged for a closer look

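Of the genes named by rule, 5 were called higher in one gate and lower in another, which brought them here. The differences between gates were not tested. COL4A4 had a log2 ratio of 30 over 7 days of 4.57 in the stromal gate and -1.62 in the Sertoli gate. NR4A1, an early-response nuclear receptor, had 0.66 in the stromal and -1.26 in the Sertoli gate, with levels of 143 and 226 CPM against 403 and 169. PDK4, a kinase that restrains pyruvate oxidation, had 2.33 in the Sertoli and -1.02 in the macrophage gate. HK2, a hexokinase, had 4.29 in the Sertoli and -1.02 in the macrophage gate, with Sertoli levels of 1.93 and 37.7. FN1, fibronectin, had 1.37 in the stromal and -1.76 in the macrophage gate.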

How the results depend on the processing

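No paired analysis was possible because each age is 1 library. In the whole library the count of higher genes, 4356, became 2862 with TMM and 2098 at a fold of 2. The count of lower genes, 1317, became 2021 with TMM, 2174 as a mean over barcodes, 2175 at equal gate shares and 593 at a fold of 2. Calls as a mean over barcodes, at equal gate shares and after subtraction of free RNA used fold and counts but no interval. Counts under these settings, here and in the 5 gates, thus rest on a looser rule than the main ones. Of the genes in all 5 gates, 44 higher became 20 without doublets, 28 and 11 after subtraction of 10% and 25% free RNA, 20 at a fold of 2, 18 with at least 50 counts and 134 without the germ gate. The 24 lower became 41 as a mean over barcodes, 10 after 25%, 10 at a fold of 2 and 117 without the germ gate. Of 29 genes reported there by the rule, 14 kept the call in all gates after 10% and 5 after 25%. The 25% subtraction and the omission of the germ gate were added after seeing the data.

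The Sertoli share, lower by 10.8 percentage points at 30 days, differed by -7.26 with the stricter filter, -8.85 without a filter and -6.01 with barcodes thinned. The stromal difference was 6.03 with the stricter filter. The germ difference was 2.99 with the stricter filter and 0.541 with thinning. A stricter gate gave 2.27 for Sertoli, 7.11 for stromal, 0.547 for endothelial, 0.414 for macrophage and 0.110 for germ barcodes, and the Sertoli, endothelial and macrophage differences then turned direction. That gate left few barcodes gated, so gene calls were not run with it, and the cause of these shifts was not tested. Of 26 list counts (interferon, cell cycle and antigen presentation not among them) 11 moved with TMM, 7 at equal gate shares and 4 as a mean over barcodes.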

Other observations

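Further genes were called in opposite directions in different gates, and were chosen here after their values were seen. CCND1, a cyclin of the G1 phase and a member of the postnatal growth list, stood at 17.5 CPM in the stromal gate at 7 days and 50.3 at 30 days, and at 573 and 293 in the endothelial gate. ENG, an endothelial co-receptor, read 854 and 470 in the endothelial gate and 5.75 and 11.05 in the Sertoli gate. CXCL2, a neutrophil chemokine, was higher in the endothelial gate, at 346 and 970, and lower in the Sertoli gate, at 142 and 63.8. MFAP2, a microfibril protein, was higher in the stromal gate, at 119 and 349.8, and lower in the Sertoli gate, at 20.4 and 5.95. ALDH1A3, which makes retinoic acid, stood at 530 and 319.9 in the stromal gate and at 14.96 and 46.0 in the Sertoli gate.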
